A study of Mus musculus with 8 samples.

Results

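Ccl6, Ccl12, Cxcl12 and Tgfb1 encode secreted signals of inflammation: 3 chemokines and transforming growth factor beta 1. They were taken by gene symbol from the authors' deposited table of ABCA1 knockout against control retina, and all 4 symbols are present in it, of 1802 genes. Dissociated mouse retina was profiled by droplet-based single-cell RNA sequencing of transcript 3′ ends, in 5 libraries of genotype ABCA1KO (KO below) and 3 control libraries (WT below). The labels give no strain, age or sex, do not say in which cells Abca1 was deleted, and do not say whether each library is a separate animal. The comparison asks how loss of ABCA1, a membrane transporter that loads cholesterol onto apolipoproteins, relates to gene expression in a retina whose optic nerve disease the series title links to astrocytes.

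Chemokines are small secreted proteins that bind to receptors of the G-protein-coupled type and guide the migration of leukocytes. They are sorted into families by the spacing of their first conserved cysteines: adjacent in CC chemokines, parted by a single residue in CXC chemokines. CC chemokines are typical products of activated microglia and macrophages. CXCL12 is made by stromal, vascular and glial cells and signals through CXCR4. TGF-beta 1 is secreted in a latent form, freed by integrins and proteases, and acts through receptor kinases and SMAD proteins; in nervous tissue it is known for restraining microglia and for promoting glial scarring.

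The 3 CC chemokines listed had smaller shares of cells with a value in KO and the 3 CXC chemokines listed had larger ones, as most genes did; whether the families differ was not tested. The coding stretch that sets the families apart is shown for the 6 chemokines listed in the authors' deposited table. Each stretch is from the GENCODE M21 transcript, read 5′ to 3′, with 5 codons on either side of the motif and the motif's cysteine codons in capitals. The first 3 are CC chemokines and the last 3 are CXC chemokines.
Ccl6: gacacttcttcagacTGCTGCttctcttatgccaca
Ccl9: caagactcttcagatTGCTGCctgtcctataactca
Ccl12: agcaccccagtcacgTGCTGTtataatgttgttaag
Cxcl12: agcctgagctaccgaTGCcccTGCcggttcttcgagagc
Cxcl14: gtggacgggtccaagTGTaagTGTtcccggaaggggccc
Cxcl16: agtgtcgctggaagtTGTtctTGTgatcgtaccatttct
The cysteine codons stand side by side in Ccl6, Ccl9 and Ccl12, where the pair begins at codon 50, 57 and 33 of the coding sequence. In Cxcl12, Cxcl14 and Cxcl16 there is 1 codon between them, and the pair begins at codon 30, 25 and 35. Each motif occurred 1 time in its coding sequence.

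The genes lie on 3 chromosomes in GRCm38. Ccl6 spans bases 83587882 to 83593087 of chromosome 11 on the minus strand, with 4 exons, and Ccl12 is on the plus strand of the same chromosome from 82101845 to 82103400, with 3 exons. Cxcl12 is on the plus strand of chromosome 6 from 117168535 to 117181367, with 3 or 4 exons in its 3 protein-coding transcripts. Tgfb1 is on the plus strand of chromosome 7 from 25687002 to 25705077, with 7 exons. Chromosome 11 holds 11 Ccl genes between 82035571 and 83664683, called the Ccl run here, of which Ccl6, Ccl9 and Ccl12 are listed in the authors' deposited table. The run is not contiguous: Ccl1 ends at 82305690 and the next Ccl gene, Ccl5, starts at 83525778. Ccl12 lies before this gap and Ccl6 and Ccl9 lie after it, with 1469518 bases between Ccl12 and Ccl9. Ccl9 starts at 83572919 and ends at 83578636, 9245 bases from Ccl6, with 0 protein-coding genes between them.

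Start site sequences are shown for the 4 genes and for Ccl9, since the 3 CC genes all had a smaller share of cells with a value in KO. The windows run from 250 bases before to 50 bases after the RefSeq start (GRCm38.p6), on the gene's own strand, with each CpG in capitals.
Ccl6, minus strand, chr11:83593038-83593337: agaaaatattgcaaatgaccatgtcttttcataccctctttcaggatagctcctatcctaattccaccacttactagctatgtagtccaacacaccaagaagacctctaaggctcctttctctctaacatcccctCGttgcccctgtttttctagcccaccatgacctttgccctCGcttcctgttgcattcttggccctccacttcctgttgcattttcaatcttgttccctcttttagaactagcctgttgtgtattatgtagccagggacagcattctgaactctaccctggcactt
Ccl9, minus strand, chr11:83578587-83578886: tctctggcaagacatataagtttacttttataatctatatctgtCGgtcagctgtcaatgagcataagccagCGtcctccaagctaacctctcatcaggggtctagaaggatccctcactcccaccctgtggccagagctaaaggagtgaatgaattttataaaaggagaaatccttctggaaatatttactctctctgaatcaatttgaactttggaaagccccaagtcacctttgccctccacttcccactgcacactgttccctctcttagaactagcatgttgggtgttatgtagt
Ccl12, plus strand, chr11:82101595-82101894: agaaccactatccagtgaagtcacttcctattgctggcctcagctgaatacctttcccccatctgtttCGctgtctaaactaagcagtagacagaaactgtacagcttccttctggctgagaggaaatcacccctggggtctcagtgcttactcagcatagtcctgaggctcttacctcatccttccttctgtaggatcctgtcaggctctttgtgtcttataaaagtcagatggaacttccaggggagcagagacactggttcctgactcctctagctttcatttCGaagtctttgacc
Cxcl12, plus strand, chr6:117168285-117168584: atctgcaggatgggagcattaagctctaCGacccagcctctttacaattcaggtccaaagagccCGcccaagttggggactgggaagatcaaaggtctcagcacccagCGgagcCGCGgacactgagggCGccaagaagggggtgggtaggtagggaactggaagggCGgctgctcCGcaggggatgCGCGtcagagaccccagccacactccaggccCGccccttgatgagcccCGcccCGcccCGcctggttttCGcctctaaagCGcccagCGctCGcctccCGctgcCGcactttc
Tgfb1, plus strand, chr7:25686752-25687051: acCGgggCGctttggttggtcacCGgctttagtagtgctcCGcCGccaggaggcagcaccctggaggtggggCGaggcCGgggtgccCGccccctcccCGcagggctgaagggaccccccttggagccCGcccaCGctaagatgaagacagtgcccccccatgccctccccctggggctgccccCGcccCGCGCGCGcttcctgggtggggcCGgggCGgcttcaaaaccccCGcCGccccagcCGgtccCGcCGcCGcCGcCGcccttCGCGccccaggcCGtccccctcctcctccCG
Ccl6, Ccl9 and Ccl12 each had 2 CpG in the window, against 20 in Cxcl12 and 30 in Tgfb1, and the median over 32851 RefSeq windows of this length was 7. Of the letters searched on both strands, GGGCGG, the GC box, was found 5 times in Cxcl12, 6 times in Tgfb1 and 0 times in the 3 CC genes, and is held by 35.7% of all windows. TATAAA was found 3 times in Ccl9, where 2 of the matches overlap, and 1 time in Ccl12, and is held by 13.6% of all windows. Every GGGCGG match contains a CpG, so those 2 features are not independent. The AP-1-like letters TGANTCA matched 1 time in Ccl9 (7.81% of all windows), and the NF-kB-like letters GGANTTTCC matched in 0 of the 5 windows (1.25% of all windows). These matches describe the letters of the windows and nothing of what binds there.

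All values that follow are over all retinal cells of a genotype pooled, and the authors' deposited table gives no value per library, so the spread between libraries is unknown. The p-values printed below cannot be read as a measure of that spread. Its log difference, KO minus WT, is a difference of natural-log values that appear to be batch-integrated; it is not a fold change of expression. Its share is the percent of cells with a value above 0, which, if the values are integrated, is not the detection of a transcript. Fewer cells of a type and less RNA per cell cannot be told apart in such pooled values. For rod photoreceptors, the main cell type of the mouse retina, 10 of 12 markers looked for are listed in the authors' deposited table, with shares of 78.7% to 99.5% of KO and 72.4% to 99.1% of WT cells. The targeted gene does not check the labels: Abca1 had a share of 48.7% of KO and 30.5% of WT cells and, by the authors' deposited table, its log difference was 0.0294 (adjusted p = 4.49e-05), and whether its 3′ tags lie in the deleted part is not given in the sources used here.

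Among the 4 genes, each fell into a different combination of directions. A call was an adjusted p under 0.05, which all 4 genes passed in the authors' deposited table. Of all listed genes 93.2% passed, so a call does not set the 4 apart. Ccl12 and Tgfb1 were called higher in KO, as were 69.1% of listed genes, and Ccl6 and Cxcl12 were called lower, as were 24.1%, in the authors' deposited table. Centred on the median gene of the authors' deposited table, whose log difference was 0.010, Ccl12 and Tgfb1 turn lower as well, at -0.00554 and -0.00337. By log difference and share together, Tgfb1 was 1 of 1310 genes in the authors' deposited table that were higher in both, and Ccl6 among the 11 that were lower in both. Ccl12 was among 25 genes of the authors' deposited table with a higher log difference and a smaller share, and Cxcl12 among 454 with a lower log difference and a larger share.

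**Figure D1:**
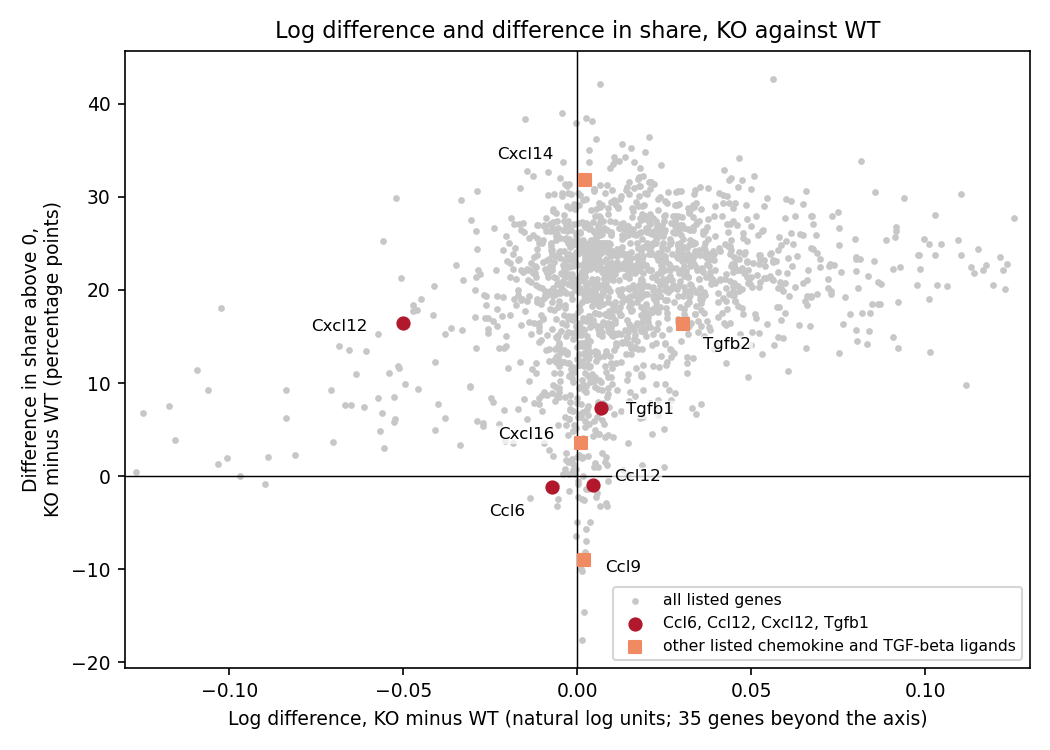
Log difference in natural log units (horizontal axis) against the difference in share of cells above 0 in percentage points (vertical axis), KO minus WT, for the listed genes as grey points; 35 genes lie beyond the horizontal limits. Tgfb1 is at the upper right of the crossing lines, Cxcl12 at the upper left, Ccl12 just to the lower right and Ccl6 to the lower left.

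The members' order by share was not the same in the 2 genotypes. It ran Ccl6, Ccl12, Tgfb1, Cxcl12 in KO cells and Ccl6, Ccl12, Cxcl12, Tgfb1 in WT cells of the authors' deposited table. In KO cells Tgfb1 (39.5%) and Cxcl12 (42.1%) were neighbours, and in WT cells Ccl12 (24.6%) and Cxcl12 (25.6%) were, in the authors' deposited table. With no spread between libraries at hand, whether such neighbours differ was not tested. Shares are not transcript levels, and the order is of shares only.

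Ccl6, a CC chemokine of rodent macrophages also called C10, was the least widespread of the 4 genes and was called lower in KO. It was above 0 in 7.0% of KO and 8.2% of WT cells per the authors' deposited table. Its share was the 2nd lowest of the 1802 genes in KO and the 3rd lowest in WT in the authors' deposited table. The log difference of Ccl6 was -0.00725 per the authors' deposited table (adjusted p = 9.96e-85), against a median of 0.00214 over the 100 genes nearest to it in mean share. Those genes had mean shares of 7.15% to 28.9%, nearly all above the 7.6% of Ccl6, so the set is one-sided. Of those 100 genes, 3 had a lower log difference than Ccl6. The difference in share was -1.2 percentage points, and 19 of the 100 had a smaller share in KO, so this direction is more common among genes of low share than in the authors' deposited table as a whole.

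Ccl12, the mouse chemokine MCP-5, which attracts monocytes through CCR2, had a log difference above 0, though below that of the median gene, with a smaller share. The share was 23.6% of KO and 24.6% of WT cells per the authors' deposited table, a difference of -1.0 percentage points. The log difference of Ccl12 was 0.00450 per the authors' deposited table (adjusted p = 1.52e-39). Against a median of 0.00261 over the 100 genes nearest in mean share, 58 of which lay below it, Ccl12 was near the middle. Of those 100 genes, 11 had a smaller share in KO.

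Ccl9, a CC chemokine that binds CCR1 and the third one listed, showed the same pair of directions as Ccl12, with a much wider gap in share. It was above 0 in 29.6% of KO and 38.6% of WT cells per the authors' deposited table. Its difference in share of -9.0 percentage points stood below those of 99 of the 100 genes nearest in mean share, of which 5 had a smaller share in KO. The log difference of Ccl9 was 0.00190 per the authors' deposited table (adjusted p = 4.87e-28), and 47 of those 100 genes lay below it.

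All 3 listed CC chemokines were thus above 0 in a smaller part of KO cells than of WT cells, a direction seen in 36 of all 1802 genes (2.0%), whereas 97.9% had a larger share in KO, as did Cxcl12 and Tgfb1. The median difference in share over all listed genes was 20.8 percentage points, with quartiles of 15.5 and 24.4. The other 33 genes with a smaller share ranged from -17.6 to -0.5 percentage points, and the list included Vcam1, an adhesion molecule that leukocytes bind to, with 17.5% of KO and 19.1% of WT cells per the authors' deposited table. Another 17 CC chemokine genes were not listed, which does not show that they were unchanged. The nearest listed genes on either side of the Ccl run on chromosome 11 had larger shares in KO, as did 97.9% of all listed genes. Neither adjoins the run: 5730455P16Rik ends at base 80378034, before it, and Lhx1 starts at base 84518284, after it. Lhx1, a transcription factor of horizontal cells, had 72.4% of KO and 36.2% of WT cells, and 5730455P16Rik had 67.4% and 43.1%, in the authors' deposited table.

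**Figure D2:**
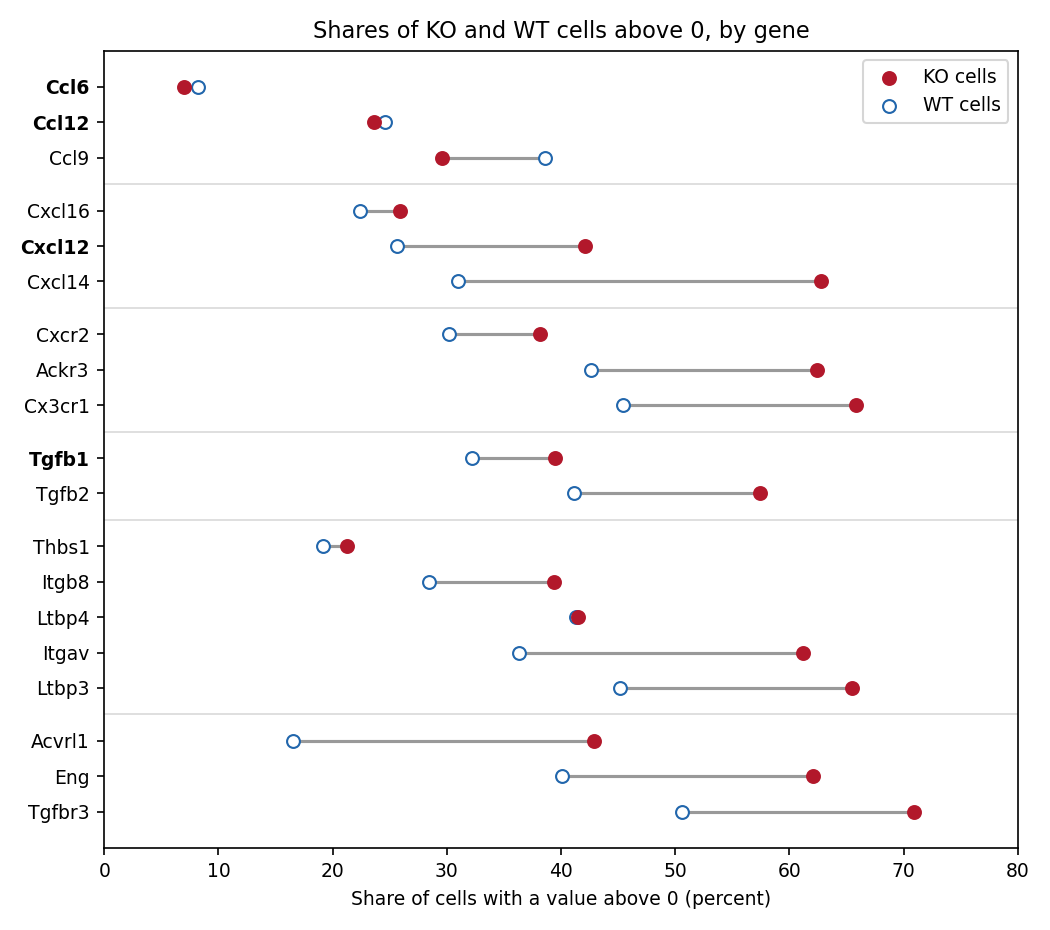
Share of cells with a value above 0, in percent, for KO cells (filled points) and WT cells (open points), in blocks from top to bottom of CC chemokines, CXC chemokines, chemokine receptors, TGF-beta ligands, genes of TGF-beta latency and activation, and TGF-beta receptors. In Ccl6, Ccl12 and Ccl9 the filled point lies left of the open point, and in the other 16 genes it lies right of it, by 0.2 percentage points in Ltbp4.

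Cxcl12, the chemokine also called SDF-1, had the lowest log difference of the 4 genes. Its share was 42.1% of KO and 25.6% of WT cells per the authors' deposited table, a difference of 16.5 percentage points that 63 of the 100 genes nearest in mean share lay below. The log difference of Cxcl12 was nevertheless -0.0501 per the authors' deposited table (adjusted p = 1.71e-04). Each of those 100 genes had a higher one, with a median of 0.00200 and a lowest value of -0.0473 in Pygm. More widely, 51 genes of the authors' deposited table had a lower log difference than Cxcl12. The smallest mean share among these 51 genes was 44.15%, in Rp1l1, and 482 listed genes had a smaller mean share than that. Of the 51, 38 had a mean share of 70% or more. Cxcl12 also had the largest p of the 4 genes despite the largest difference, at place 1601 of 1802 by p in the authors' deposited table.

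**Figure D3:**
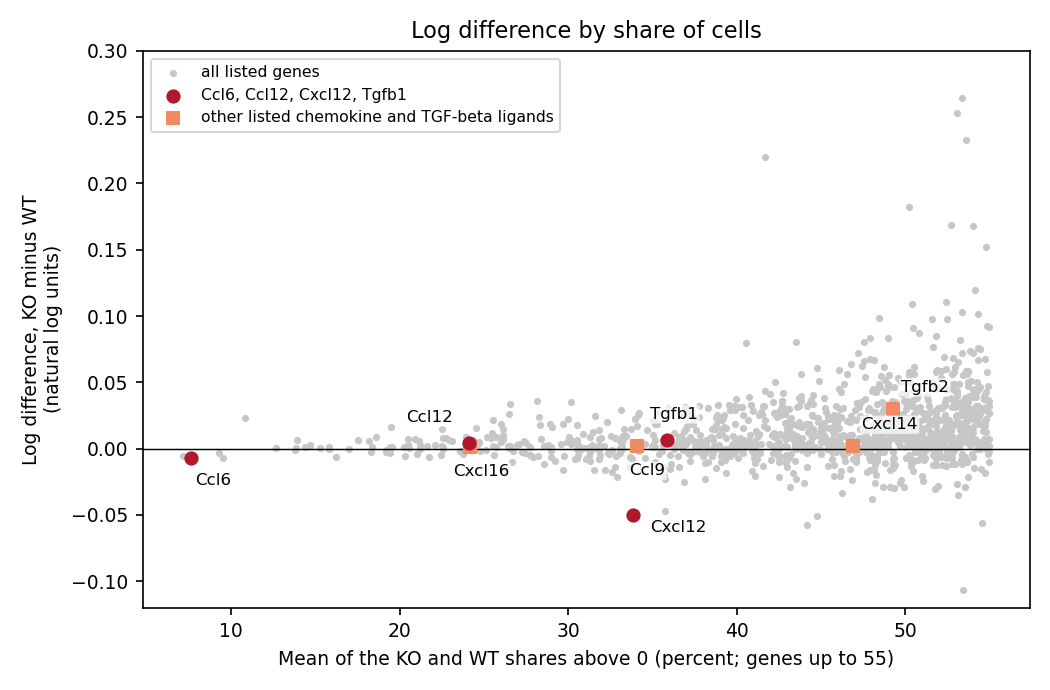
Log difference, KO minus WT, in natural log units (vertical axis) against the mean of the KO and WT shares of cells above 0 in percent (horizontal axis), for genes with a mean share of up to 55%. Cxcl12 lies at -0.0501, below all 100 genes nearest in share, and Pygm at -0.0473 is the nearest grey point to it; Ccl6, Ccl12 and Tgfb1 lie within the grey band around 0.

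The other CXC chemokines listed did not share the log difference of Cxcl12, and all 3 had larger shares in KO. Cxcl14, an epithelial and neuronal chemokine, was above 0 in 62.8% of KO and 31.0% of WT cells per the authors' deposited table. Its log difference was 0.00208 in the authors' deposited table, lower than the median of 0.00756 over the 100 genes nearest in mean share, whereas its gain of 31.8 percentage points exceeded that of most of them (percentile 97). Cxcl16, a transmembrane chemokine that binds CXCR6, had shares of 25.9% of KO and 22.4% of WT cells and a log difference of 0.00111 per the authors' deposited table. Both were called higher, but like Ccl12 they lay below the median gene. A further 13 CXC, CX3C and XC chemokine genes were not listed.

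Chemokine receptors were mostly unlisted. Of 23 looked for, 3 were listed in the authors' deposited table, 2 called higher and 1 lower (69.1% and 24.1% over all listed genes), with a median log difference of 0.0121 against 0.010. Ackr3, the atypical receptor that binds and removes CXCL12, had shares of 62.4% of KO and 42.6% of WT cells and a log difference of 0.0121 per the authors' deposited table (adjusted p = 6.02e-206). Cx3cr1, the fractalkine receptor of microglia, had 65.8% of KO and 45.4% of WT cells and a log difference of 0.0190 per the authors' deposited table. Cxcr2, a receptor of neutrophil-attracting CXC chemokines, had 38.2% and 30.2% and a log difference of -0.00199 per the authors' deposited table. CXCR4, the signalling receptor of CXCL12, and CCR1 and CCR2, the receptors of CCL9 and CCL12, were among the 20 receptor genes not listed.

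Tgfb1 was called higher in KO by a log difference smaller than that of the median gene. Its share was 39.5% of KO and 32.2% of WT cells per the authors' deposited table, and the difference of 7.3 percentage points was among the smaller ones of the table (percentile 8.71). The 100 genes nearest in mean share had a lower median difference than all listed genes, 14.65 percentage points, and 16 of them lay below Tgfb1. The log difference of Tgfb1 was 0.00668 per the authors' deposited table (adjusted p = 8.04e-22), with 68 of the 100 genes nearest in mean share below it and a median of 0.00382. Tgfb2, the other TGF-beta ligand listed, had a log difference of 0.0303 per the authors' deposited table without a call (adjusted p = 0.174), with shares of 57.4% of KO and 41.1% of WT cells.

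Genes that store and free latent TGF-beta had 3 higher calls, 1 lower call and 1 gene without a call, among 5 listed of 12 looked for in the authors' deposited table, where 69.1% of all listed genes were called higher and 24.1% lower. Of these 4 calls, 2 lay above and 2 below the median gene. Itgav, the alpha V integrin subunit, had the highest log difference of them, at 0.0619 in the authors' deposited table (adjusted p = 9.69e-80), with shares of 61.2% of KO and 36.3% of WT cells. Its partner subunit Itgb8, with which it activates latent TGF-beta, had a log difference of 0.00422 and shares of 39.4% of KO and 28.4% of WT cells per the authors' deposited table. The latent TGF-beta binding proteins differed in direction: Ltbp3 had a log difference of 0.0217 and Ltbp4 one of -0.00250 in the authors' deposited table. Thbs1, thrombospondin 1, had 0.00153 per the authors' deposited table, without a call (adjusted p = 0.376). The median of these 5 genes was 0.00422, below the 0.010 of all listed genes.

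Of 12 receptor and SMAD genes 3 were listed in the authors' deposited table, 1 called higher and 2 lower, against 69.1% and 24.1% of all listed genes. Acvrl1, an endothelial type I receptor, had a log difference of -0.0162 per the authors' deposited table, with shares of 42.9% of KO and 16.5% of WT cells. Eng, endoglin, its co-receptor, had -0.00871 in the authors' deposited table, with 62.1% of KO and 40.1% of WT cells. Tgfbr3, betaglycan, had 0.0165 in the authors' deposited table, with 70.9% of KO and 50.6% of WT cells. The genes of the main type I and type II TGF-beta receptors and of the SMAD proteins were not listed.

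Known targets of TGF-beta had 6 higher and 2 lower calls among 9 listed genes in the authors' deposited table, a split near the 74.2% of higher calls over all listed genes. Relative to the median gene, 4 of the called targets lay above and 4 below. Col4a1 (0.0474) and Col4a2 (0.0333), the collagen chains of basement membranes, and Acta2 (0.0428), smooth muscle actin, had higher calls per the authors' deposited table. By the authors' deposited table, Tsc22d1 had 0.0454 without a call (adjusted p = 0.425). The median log difference of the 9 was 0.0252, and the median difference in share was 19.2 percentage points, against 20.8 for all listed genes.

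Other inflammatory signals had log differences near 0, with larger shares in KO for all but Vcam1. Of 20 further cytokine genes 2 were listed in the authors' deposited table: Il33, an alarmin made by glia, was called lower at -0.000343 (adjusted p = 9.38e-15), and Spp1, osteopontin, had 0.000870 without a call (adjusted p = 0.315). Of 13 NF-kB response genes 2 were listed in the authors' deposited table, Vcam1 with a log difference of -0.00231, called lower, and Tnfaip3 with 0.000226, not called (adjusted p = 0.839). The shares were 44.0% of KO and 28.5% of WT cells for Il33, 62.6% and 47.2% for Spp1, and 60.3% and 42.7% for Tnfaip3 per the authors' deposited table.

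**Figure D4:**
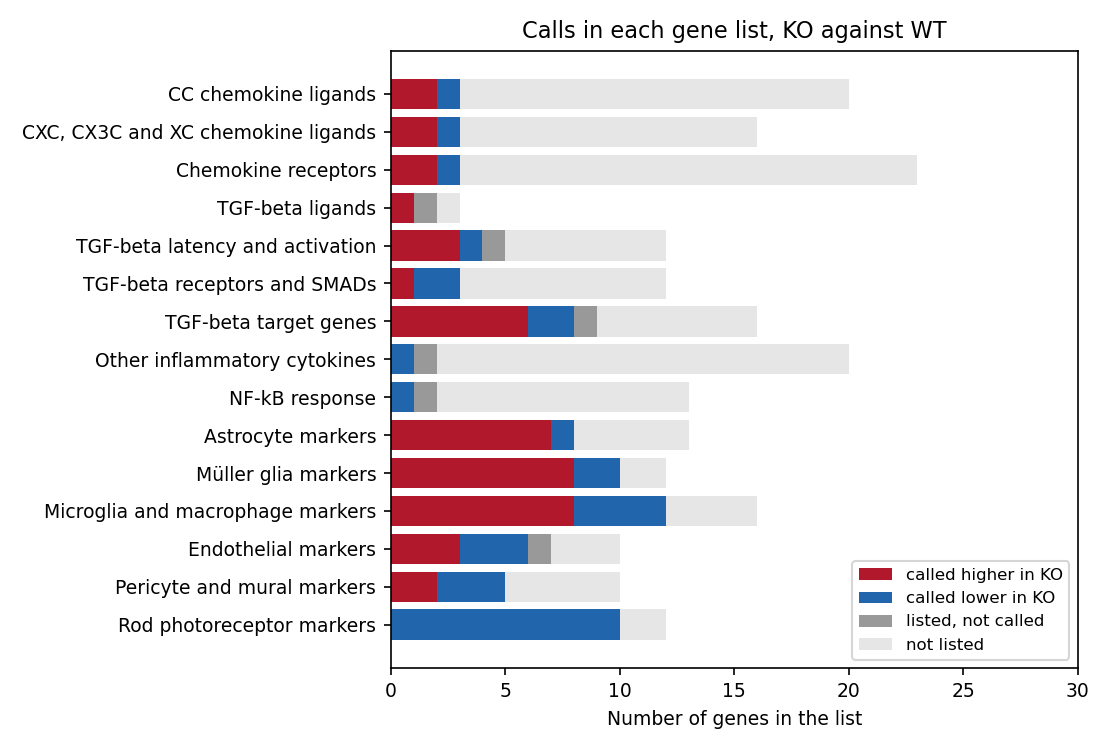
Number of genes in each of 15 lists that were called higher in KO, called lower in KO, listed without a call, or not listed, at an adjusted p under 0.05. Most chemokine, receptor and cytokine genes were not listed, and the cell type marker lists were covered more fully.

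Markers of the cells known to make these signals went both ways. Of 16 microglia and macrophage markers, 12 were listed in the authors' deposited table, 8 called higher and 4 lower, against 69.1% and 24.1% of all listed genes, and 5 lay above and 7 below the median gene. They had a median share of 42.6% of KO and 30.5% of WT cells and a lowest of 17.7% of KO and 10.1% of WT cells. All 12 had larger shares in KO, as did 97.9% of all listed genes. C1qb (0.0373), Ctss (0.0248) and Cx3cr1 (0.0190) were among those called higher per the authors' deposited table. C1qa (-0.00387) and C1qc (-0.00146), which encode the other chains of the same complement protein and were chosen after their values were seen, were called lower per the authors' deposited table. None of the 12 was at exactly 0, though P2ry12 was close to it at 0.000755. With no raw p above 0.00938 listed, markers without a difference may be among those not listed. The part of microglia in the values of Ccl6, Ccl9 and Ccl12 was not tested.

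Vascular markers stood on both sides of 0 beside the lower value of Cxcl12. Pericyte and mural markers had 3 lower and 2 higher calls among 5 listed of 10 in the authors' deposited table, against 24.1% lower and 69.1% higher over all listed genes, with shares of 53.2% to 82.7% of KO and 31.1% to 75.9% of WT cells. Vtn (-0.125), vitronectin, and Rgs5 (-0.0507), a pericyte regulator of G-protein signalling, were lower, and Acta2 (0.0428) was higher in the authors' deposited table. Vtn had the highest shares of the 5, 82.7% of KO and 75.9% of WT cells, within the ranges of the rod markers. In these pooled values, neither the value of Vtn nor those of the other mural and endothelial markers can be assigned to a cell type. Endothelial markers had 3 calls in each direction among 7 listed of 10 in the authors' deposited table, to be read against the same background, with shares of 41.7% to 65.6% of KO and 17.5% to 45.2% of WT cells. Those with the largest log differences were Kdr (0.0300), Esam (0.0264), Flt1 (0.0213) and Egfl7 (-0.0161) in the authors' deposited table. None of these markers was at exactly 0, but the largest raw p listed was 0.00938, so markers without a difference may be unlisted. The part of these markers in the value of Cxcl12 was not tested.

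Glial marker calls were mostly higher in KO and mostly above the median gene. Over all listed genes, 74.2% of calls were higher and 49.2% lay above the median gene. Whether the glial markers differ from the other genes was not tested. Of 13 astrocyte markers, 8 were listed in the authors' deposited table, 7 called higher and 1 lower (6 above and 2 below the median gene), with shares of 42.9% to 67.1% of KO and 25.8% to 47.0% of WT cells. Gja1 (0.0444), Slc1a2 (0.0293) and Fabp7 (0.0233) were higher and Aqp4 (-0.0288), the water channel of glial endfeet, was lower in the authors' deposited table. Of 12 markers of Müller glia, which span the retina, 10 were listed in the authors' deposited table, 8 called higher and 2 lower (7 above and 3 below the median gene), and the largest log differences were those of Dbi, Vim, Apoe and Dkk3 (0.0650 to 0.103). All 10 listed rod markers were called lower in the authors' deposited table, with Rp1 (-0.263), Gngt1 (-0.250), Sag (-0.192) and Rcvrn (-0.147) in front.

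The genes most like each of the 4 in the authors' deposited table were found by the distance over percentile ranks of 3 values: the log difference, the KO share and the WT share. For Ccl6 they were Fgd5, Lrat and Ocln, at 0.421, 2.29 and 2.67 percentile points, among which Fgd5 was not called (adjusted p = 0.108 in the authors' deposited table). For Ccl12 they were Emp1, Rnase4 and Klf4, at 2.02, 4.32 and 4.38 points. Lrat, Ocln and Klf4 also had smaller shares in KO, and Fgd5, Emp1 and Rnase4 had larger ones, in the authors' deposited table. Both shares entered the distance, so a like direction is no separate result. For Cxcl12 they were Pygm, Sst and Gm13075, at 2.66, 3.38 and 3.86 points, and for Tgfb1 they were Cdon, Nxn and Tpbgl, at 4.23, 4.69 and 4.89 points. The likeness rests on 1 comparison with no replicate.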

How the data were processed

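Per the submitters' processing notes, the authors used Cell Ranger, DESeq2 and Seurat 3.1.4, and the build was GRCm38 (no role is stated for each). The sources used here do not give the test, the cell filters, the treatment of doublets or whether and how values were integrated. A single deposited comparison table was read. Its log difference (avg_logFC in the file header) was read in natural log units, as that Seurat version writes it, because the deposited file states no base. Shares of cells above 0 are deposited as a fraction and printed as percent. The deposited file has 1 raw and 1 adjusted p-value for every gene. The adjusted p was 2000 times the raw p in all 1554 rows in which the quotient could be formed (relative tolerance 1e-06), which is a Bonferroni adjustment over 2000 features, and the largest raw p listed was 0.00938. An unlisted gene may have been outside those features, above that limit or removed by another filter. What the deposited p-values take as replicates is not stated. With 5 KO and 3 WT libraries, the 183 raw p-values of 0 point to cells as replicates. The p-values are therefore not read here as a measure of the spread between libraries. Depth and numbers of cells are unknown here, so no interval or SD is given.

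A call is an adjusted p under 0.05. Members, gene lists and rules were chosen with earlier results of these data known. The genes named are the 4 members, Abca1, all listed chemokine, receptor and TGF-beta pathway genes, up to 4 listed genes of each other list with the largest absolute log difference, and the 3 genes nearest to each member. Some of the genes that rule selects are not reported here, and the 2 genes flanking the Ccl run are outside it. Each ligand was also set beside the 100 genes nearest in the mean of the KO and WT shares. Sequences came from RefSeq (GRCm38.p6), in which all 4 members matched, and from GENCODE M21. Fits per library, leaving out replicates and a replicate block were planned for values per library and were not run. The functions were tested on simulated data. Python 3.11.15 with pandas 2.3.3 was used.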

Additional observations from a re-analysis of the deposited data

How the results depend on the processing

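The calls of Ccl6, Ccl12, Cxcl12 and Tgfb1 kept their side of the threshold at an adjusted p under 0.01. Benjamini-Hochberg adjustment over the listed genes called them too, but it could not do otherwise. The largest raw p listed was 0.00938, so every listed gene passes that adjustment. Centred on the median gene, Ccl12 reversed to -0.00554 and Tgfb1 to -0.00337, because that median is 0.010; Ccl6 and Cxcl12 kept their direction at -0.0173 and -0.0602. Centred on the 100 genes nearest in share, all 4 kept their direction, at -0.00938 for Ccl6, 0.00189 for Ccl12, -0.0521 for Cxcl12 and 0.00286 for Tgfb1. The same centring on the median gene moves the count of genes called higher from 1246 (74.2% of calls) to 827 (49.2%) and the count called lower from 434 to 853. With the log odds of the shares in place of percentage points, the percentile of the difference in share was 1.03 in place of 1.55 for Ccl6, 1.69 in place of 1.66 for Ccl12, 32.1 in place of 29.0 for Cxcl12 and 7.02 in place of 8.71 for Tgfb1. No paired analysis was possible because the deposited table has no value per library, and leaving out each replicate in turn was not run for the same reason.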

Other observations

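By the authors' deposited table, 129 listed genes lie on chromosome 11 and the share of cells above 0 was smaller in KO for 5 of them. Over all 1802 listed genes it was smaller for 36 (2.0%). The 3 Ccl genes are among the 5 on chromosome 11, and whether that chromosome differs was not tested. Within the whole Ccl run they were also the only 3 listed genes, so no other gene of the run gives a value to set beside them.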
